A study of Mus musculus with 4 samples.

Results

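Iron handling in mouse heart was followed through 8 genes, chosen by symbol from a list of genes for iron uptake, storage, export and sensing. They were Tfrc and Slc11a2 for uptake, Fth1 and Ftl1 for storage, Slc40a1 for export, Aco1 and Ireb2 for sensing, and Hmox1 for the release of iron from heme. All 8 were found among the 23337 gene symbols of the deposited values. No rule on measured levels chose them, although earlier results of these data were known. The RNA-seq libraries came from hearts of PIMT fl/fl control mice and of csPIMT-/- mice, at 2 and 6 months of age, all labelled as strain C57BL6/J. The controls carry loxP sites around part of the PIMT gene (Tgs1, also called Ncoa6ip). In csPIMT-/- mice a Cre recombinase driven by the α-myosin heavy chain promoter deletes exons 3 and 4 of that gene in cardiomyocytes, while the other cells of the heart keep it. For each library the RNA of 5 hearts was pooled, from both sexes, so there was 1 library per genotype and age, 4 in all, and no replicate library.

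Iron enters most cells bound to transferrin, through the transferrin receptor, and leaves the endosome through a divalent metal transporter. In the cytosol it is used for heme and iron-sulfur clusters, kept in ferritin, a shell of heavy and light chains, or exported by ferroportin. Iron-regulatory proteins bind a hairpin, the iron-responsive element, in several of these mRNAs when iron is scarce. Binding in the 3' UTR of the transferrin receptor mRNA protects it from decay, and binding in the 5' UTR of ferritin and ferroportin mRNAs blocks their translation.

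The iron-responsive elements are shown because they set apart the members whose mRNA is held at the level of stability from those held at the level of translation, and because RNA-seq reads only the amount of mRNA. The search ran along the sense strand of GENCODE M21 transcripts (GRCm38, the assembly of mm10). It asked for a C, the bulged base, then any 5 bases, the loop CAGTGN and any 5 further bases, and counted how many of the 5 bases on either side of the loop could pair, G with T allowed. Capitals mark the bulged C and the 6 bases of the loop. Each sequence is 29 bases long and is written 5′ to 3′ on the strand of the gene.
Tfrc element 1: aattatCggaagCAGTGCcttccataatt
Tfrc element 2: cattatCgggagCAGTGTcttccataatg
Tfrc element 3: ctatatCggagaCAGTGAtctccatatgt
Tfrc element 4: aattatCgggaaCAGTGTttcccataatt
Fth1: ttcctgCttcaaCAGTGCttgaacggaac
Ftl1: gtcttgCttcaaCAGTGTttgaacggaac
Slc40a1: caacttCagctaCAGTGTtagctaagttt
Slc11a2: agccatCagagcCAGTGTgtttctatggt

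The 4 Tfrc elements lay in exon 19, the last of 19 exons of Tfrc-201, in the 3' UTR on the plus strand, at chr16:32631219-32631247, chr16:32631598-32631626, chr16:32631663-32631691 and chr16:32631710-32631738. The Fth1 element lay in the 5' UTR in exon 1 of 4, at chr19:9982732-9982760 on the plus strand. The Ftl1 element lay in the 5' UTR in exon 1 of 4, at chr7:45459779-45459807 on the minus strand, and that of Slc40a1 in the 5' UTR in exon 1 of 8, at chr1:45925465-45925493 on the minus strand. All of these had 5 of 5 pairs beside the loop, a match that 294 of 21877 protein-coding genes, 1.34%, held in at least 1 transcript. The Slc11a2 match, in the 3' UTR in the last of 16 exons of 1 of its transcripts, at chr15:100395153-100395181 on the minus strand, had 4 of 5 pairs there and 1 of 5 below the bulge, and 10.7% of protein-coding genes held a match with at least 4 pairs. Pairs were counted without gaps, so an extra unpaired base on 1 side of the stem, as an element may have, lowers the count. Aco1, Ireb2 and Hmox1 held no match with at least 4 pairs in their transcripts. A match is a string of letters, and binding was not measured here.

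**Figure D1:**
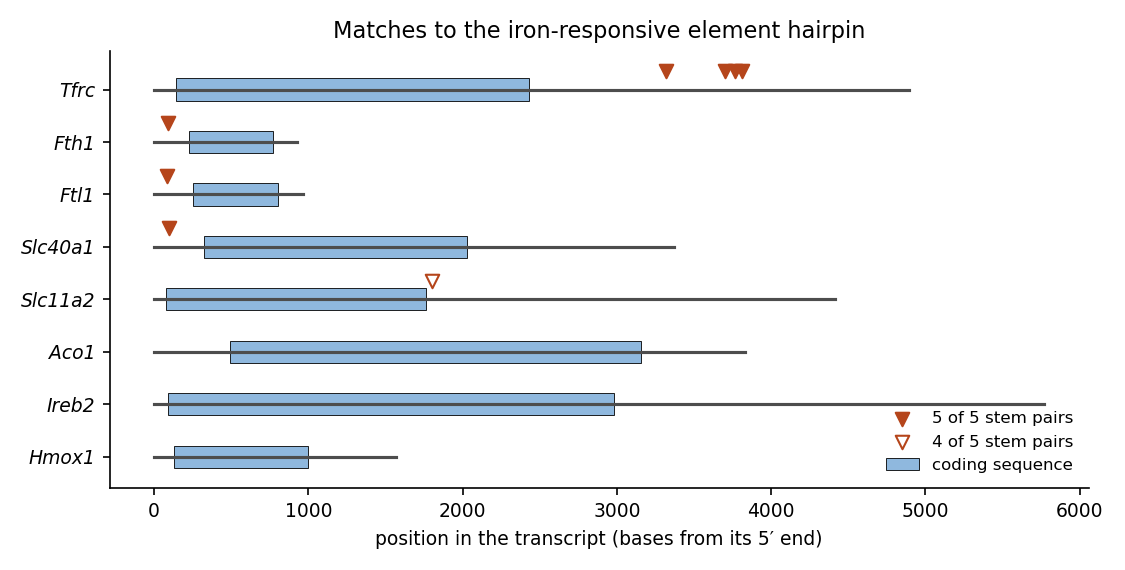
Position, in bases from the 5′ end, of the hairpin matches (triangles) in 1 transcript of each gene, with the coding sequence as a box. The 4 Tfrc matches lie after the coding sequence, at bases 3321 to 3812 of 4890, and those of Fth1, Ftl1 and Slc40a1 before it, at bases 84 to 96.

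The libraries held 39854713 and 40705783 reads on genes in the controls of 2 and 6 months, and 29823073 and 36172093 in csPIMT-/-. Values are the deposited normalized counts, reads scaled by the authors so that the 4 libraries can be compared, with 1 read worth 0.865 to 1.23. Ratios carry a 95% Clopper-Pearson interval from the reads of both libraries, which is for counting error only and leaves out variation between mice and pools. It treats reads as independent. PCR reads without molecular identifiers are not independent molecules, so it may be too narrow even for counting error. A ratio past 2-fold was counted, with no p-value at a single age. The genotype effect over both ages was tested with limma, with age as a term, which left 1 residual degree of freedom. That degree of freedom is the change of the genotype difference between the ages, and limma also borrows variance from other genes. The p-values do not measure spread between replicate pools or between mice. Tgs1, the deleted gene, had 580 and 816 normalized counts in the controls of 2 and 6 months and 160 and 162 in csPIMT-/-, a ratio of 0.276 and 0.199. Part of this drop lay on a trend over transcript GC content shared by all genes, described below.

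Tfrc was the member that differed most between the genotypes. It encodes the transferrin receptor, which takes up iron-loaded transferrin, and lies at chr16:32608920-32632794 on the plus strand. Its normalized count was 40084 in the control and 2652 in csPIMT-/- at 2 months. At 6 months it was 20086 in the control and 930 in csPIMT-/-. Both csPIMT-/- pools were below both control pools, and the lowest value was that of the older csPIMT-/- pool. The level was 15.1-fold lower in csPIMT-/- at 2 months (ratio 0.0662, 95% interval 0.0633 to 0.0691) and 21.6-fold lower at 6 months (0.0463, 0.0433 to 0.0495). Over both ages Tfrc fell by 4.16 on the log2 scale (SE 0.234), with an adjusted p of 0.0117 in limma.

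The control pools also differed in Tfrc, with a ratio of 0.501 for 6 over 2 months (95% interval 0.493 to 0.509), and the csPIMT-/- pools with one of 0.351 (0.324 to 0.379). With 1 pool per age, age and pool cannot be told apart. Taking each csPIMT-/- pool against the control pool of the other age gave log2 ratios of -2.92 for the 2-month pool and -5.43 for the 6-month pool. Among genes that reached 1000 reads in either library, the Tfrc ratio ranked 4th from the lowest of 7157 at 2 months and 6th of 7614 at 6 months. Among all genes compared it ranked 67th of 15152 and 55th of 15218.

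Slc11a2, the divalent metal transporter that moves iron out of the endosome, had 1938 and 1914 normalized counts in the controls of 2 and 6 months and 2468 and 2501 in csPIMT-/-. Both csPIMT-/- pools were above both controls, which lay close together. The ratio was 1.27 at 2 months (95% interval 1.20 to 1.35) and 1.31 at 6 months (1.23 to 1.39), inside 2-fold at both ages. The difference over both ages, 0.38 on the log2 scale (SE 0.209), did not pass the test (limma, adjusted p = 0.214).

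Ferritin mRNAs stood higher in csPIMT-/-. Fth1 encodes the heavy chain, which oxidises iron as it enters the shell. Its normalized count was 12754 and 15333 in the controls of 2 and 6 months, and 33995 and 24638 in csPIMT-/-. Both csPIMT-/- pools exceeded both controls, with the 2-month pool highest. The ratio was 2.67 at 2 months (95% interval 2.61 to 2.72) and 1.61 at 6 months (1.58 to 1.64). Over both ages Fth1 rose by 1.06 on the log2 scale (SE 0.278), with an adjusted p of 0.0397 in limma.

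Ftl1 encodes the light chain, which helps the iron core to form. Its normalized count was 6065 and 8069 in the controls of 2 and 6 months, and 16611 and 18666 in csPIMT-/-. The groups did not overlap, and here the 6-month pool was the higher of the csPIMT-/- pools. The ratio was 2.74 at 2 months (95% interval 2.66 to 2.82) and 2.31 at 6 months (2.26 to 2.37), and over both ages Ftl1 rose by 1.34 on the log2 scale (SE 0.218; limma, adjusted p = 0.0148). Ftl1 counts are uncertain, because 90.6% of the 50-base windows of its transcript, the length of a read, also occur in transcripts of 17 other annotated genes, and reads from them may have been lost or assigned elsewhere. The same share was 6.59% for Fth1 and 0 for Tfrc, Slc40a1, Aco1, Ireb2 and Hmox1.

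**Figure D2:**
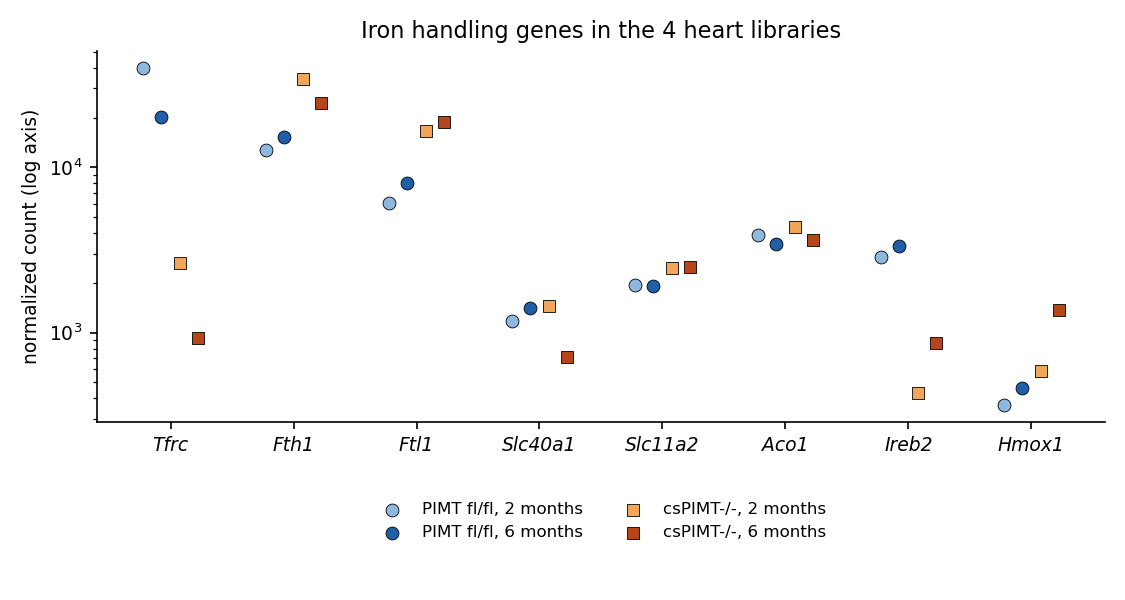
Normalized count of each gene on a log axis in the 4 libraries, circles for PIMT fl/fl and squares for csPIMT-/-, each point 1 pool of 5 hearts. Tfrc and Ireb2 have both squares below both circles, Fth1, Ftl1, Slc11a2 and Hmox1 both above, and the squares of Slc40a1 and Aco1 lie on either side of a circle.

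Slc40a1 encodes ferroportin, the exporter of iron from cells. Its normalized count was 1173 and 1407 in the controls of 2 and 6 months, 1440 in csPIMT-/- at 2 months and 714 at 6 months. The 6-month csPIMT-/- pool was the lowest of the 4 and the 2-month one the highest. The ratio was 1.23 at 2 months (95% interval 1.13 to 1.33) and 0.507 at 6 months (0.463 to 0.555), and the csPIMT-/- pools differed by a ratio of 0.496 for 6 over 2 months. Over both ages the difference of -0.33 on the log2 scale (SE 0.361) did not pass the test (limma, adjusted p = 0.508).

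The mRNAs of the iron-regulatory proteins differed from each other, at 6 months only before the GC trend described below was subtracted. Aco1 encodes the bifunctional one, a cytosolic aconitase when it holds an iron-sulfur cluster and an RNA-binding protein when it does not. It had 3876 and 3456 normalized counts in the controls of 2 and 6 months and 4345 and 3610 in csPIMT-/-. The 6-month csPIMT-/- pool lay between the controls. The ratio was 1.12 (95% interval 1.07 to 1.17) and 1.04 (0.998 to 1.09), and the difference over both ages, 0.12 on the log2 scale (SE 0.204), did not pass the test (limma, adjusted p = 0.666).

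Ireb2 encodes the iron-regulatory protein that is removed by the proteasome when iron is plentiful. It had 2849 and 3337 normalized counts in the controls of 2 and 6 months, and 434 and 866 in csPIMT-/-. Both csPIMT-/- pools were below both controls, and the 2-month pool was the lower. The ratio was 0.152 at 2 months (95% interval 0.136 to 0.170), 6.57-fold lower, and 0.259 at 6 months (0.240 to 0.280), 3.85-fold lower. Over both ages Ireb2 fell by 2.32 on the log2 scale (SE 0.270), with an adjusted p of 0.0117 in limma. In csPIMT-/- the level was 1.99 times as high at 6 as at 2 months (95% interval 1.76 to 2.27), against 1.17 in the controls.

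Hmox1 encodes heme oxygenase 1, which opens heme and frees its iron and is induced by heme and oxidative stress. It had 365 and 463 normalized counts in the controls of 2 and 6 months, and 588 and 1362 in csPIMT-/-. The 6-month csPIMT-/- pool stood above the other 3. The ratio was 1.61 at 2 months (95% interval 1.41 to 1.84) and 2.94 at 6 months (2.66 to 3.26). Over both ages Hmox1 rose by 1.13 on the log2 scale (SE 0.317), with an adjusted p of 0.0466 in limma.

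Read together, 4 of the 8 genes were past 2-fold at 2 months, Tfrc and Ireb2 lower and Fth1 and Ftl1 higher, where 39.7% of all 15152 genes compared were past 2-fold (22.5% lower and 17.3% higher). At 6 months 4 of 8 were past 2-fold, Tfrc and Ireb2 lower and Ftl1 and Hmox1 higher, beside 41.9% of 15218 genes (24.9% lower and 16.9% higher). The number of members past 2-fold was thus close to the background at both ages. The median ratio of the 8 was 1.25 at 2 months and 1.18 at 6 months, against 0.997 and 1.002 over all genes. In 2 members both csPIMT-/- pools lay below both controls and in 4 above, where 36.4% and 35.2% of all genes did so. By limma 5 of 8 passed, 2 lower and 3 higher, beside 30.2% of the 14935 genes tested (18% lower and 12.2% higher). The limma call of Tfrc held without each library in turn (adjusted p from 0.00990 to 0.0362, no age term). That of Ireb2 was lost without the 6-month control (0.0558), and that of Ftl1 without either control (0.0718 and 0.0553). Fth1 passed only without the 6-month csPIMT-/- library (0.0223), and Hmox1 only without the 2-month csPIMT-/- library (0.0170). At both ages Tfrc and Ireb2 were more than 2-fold lower, as were 16% of all genes, and Ftl1 more than 2-fold higher, as were 7.73%. Between the control pools no member was past 2-fold, beside 13.7% of all genes (4.65% lower and 9.01% higher at 6 months). Between the csPIMT-/- pools Tfrc and Slc40a1 were more than 2-fold lower at 6 months and Hmox1 more than 2-fold higher, beside 17.9% (8.2% lower and 9.71% higher).

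**Figure D3:**
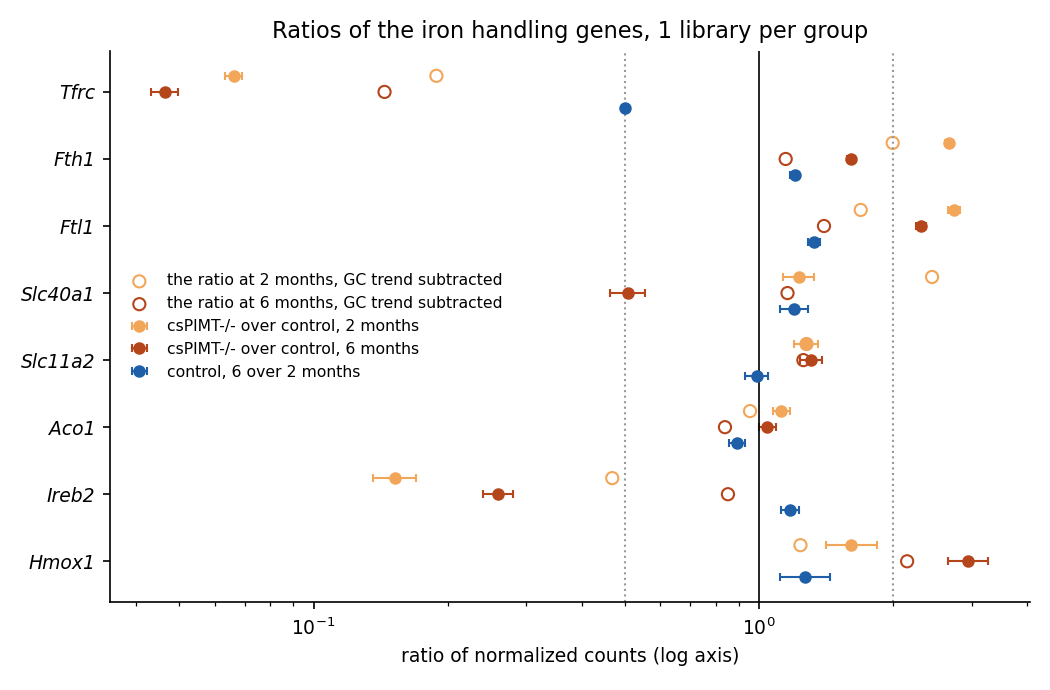
Ratio of normalized counts on a log axis, csPIMT-/- over control at 2 months (orange) and 6 months (red) and control 6 over 2 months (blue), with 95% counting intervals; open circles have the GC trend subtracted and dotted lines mark 2-fold. Tfrc lies at 0.0662 and 0.0463, left of its control pool ratio of 0.501.

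Levels can be compared between genes only per length, here as normalized counts per kb of 1 transcript per gene, of 929 to 5770 bases. On that scale Tfrc stood at 8197 and 4108 in the controls of 2 and 6 months, and at 542 and 190 in csPIMT-/-. Fth1 stood at 13728 and 16505 in the controls and at 36593 and 26521 in csPIMT-/-. The Fth1 level per kb was 1.67 and 4.02 times that of Tfrc in the controls of 2 and 6 months, and 67.5 and 139 times in csPIMT-/-. The heavy and light ferritin chains kept closer company, with an Fth1 level per kb 2.19, 1.98, 2.13 and 1.38 times that of Ftl1 in the controls of 2 and 6 months and csPIMT-/- of 2 and 6 months. Ireb2 was the lower of the sensors in every library. The Aco1 level per kb was 2.05 and 1.56 times that of Ireb2 in the controls of 2 and 6 months, and 15.1 and 6.28 times in csPIMT-/-. These levels are not adjusted for the GC trend described below. With that trend subtracted, the ratio of csPIMT-/- over control at 6 months was 0.838 for Aco1 and 0.851 for Ireb2. The exporter Slc40a1 stood at 212 to 427 normalized counts per kb, Slc11a2 at 633 to 827 and Hmox1 at 233 to 868.

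The ratios of all genes moved with the GC content of their transcripts, and so did those of the members. Across genes the log2 ratio of csPIMT-/- over control had a Spearman correlation with GC content of 0.595 at 2 months and 0.623 at 6 months, a description over genes that share the same 2 libraries, against -0.269 between the control pools. Tfrc and Ireb2 have transcripts of 39.8% and 39.0% GC, and Slc40a1 one of 43.5%, below the median of 50.4%. Those of Fth1 and Ftl1 hold 53.6% and 58.1%, and that of Hmox1 53.3%. Among genes of 38 to 40% GC the log2 ratio had its median at -1.59 and its 10th percentile at -2.67 at 2 months, and at -1.69 and -3.00 at 6 months. Tfrc lay below these with log2 ratios of -3.92 and -4.43. Ireb2 lay just below the 10th percentile at 2 months with -2.71 and near the median at 6 months with -1.95.

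With the GC trend subtracted, the ratio of Tfrc was 0.189 at 2 months and 0.144 at 6 months, ranking 17th from the lowest of 6604 and 13th of 7019 genes that reached 1000 reads. Ireb2 stood at 0.468 and 0.851 and Aco1 at 0.954 and 0.838. Fth1 stood at 1.99 and 1.15, Ftl1 at 1.69 and 1.40, and Hmox1 at 1.24 and 2.15. Slc40a1 stood at 2.44 at 2 months and at 1.16 at 6 months, where the direction turned. Then 3 of 8 members were past 2-fold at 2 months, beside 25.6% of genes, and 2 of 8 at 6 months, beside 26.3%. With the trend subtracted, no gene and no member passed limma, where 3229 genes had an unadjusted p under 0.05. The adjusted p of Tfrc in limma was then 0.111 and that of Tgs1 0.214. Tgs1, with a transcript of 41.9% GC, stood at 0.644 at 2 months and 0.529 at 6 months with the trend subtracted.

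**Figure D4:**
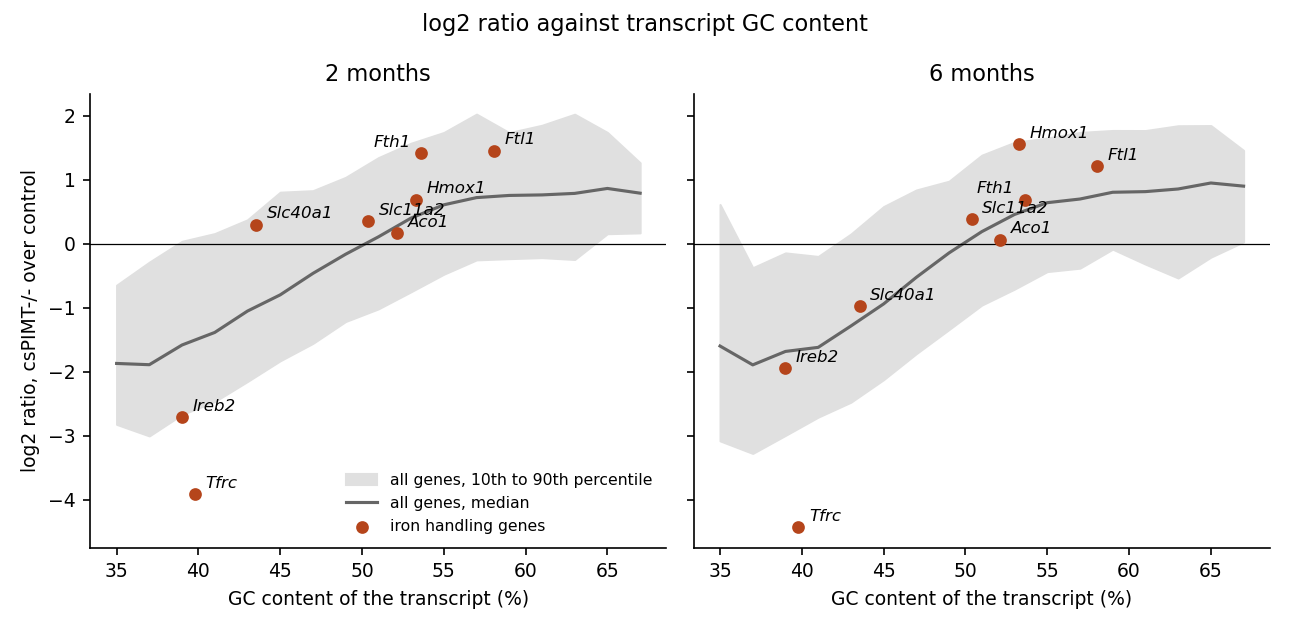
log2 ratio of csPIMT-/- over control against transcript GC content in percent, at 2 months (left) and 6 months (right), with the members as points and the median (line) and 10th to 90th percentile (band) of all genes. Tfrc, at 39.8% GC, is the only member clearly below the band at both ages.

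Markers of other cells also differed between the pools. In bulk hearts, fewer cells of a type and less RNA per cell cannot be told apart. Tfrc is also high in immature red cells. Their marker Slc4a1, the anion exchanger of the red cell membrane, had 655 reads in the 2-month control, where Tfrc was highest, and 277 in the 6-month control. In csPIMT-/- it had 67 reads at 2 months and 975 at 6 months, where Tfrc was lowest. The summed normalized count of the 10 erythroid markers in the files was 704, 284, 96.2 and 1099 in the controls of 2 and 6 months and csPIMT-/- of 2 and 6 months. The adult globin genes Hba-a1, Hba-a2, Hbb-b1 and Hbb-b2 were listed at 0 in all libraries.

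Macrophages, which recycle iron from red cells, carry much ferroportin, ferritin and heme oxygenase 1. The summed normalized count of the 15 macrophage markers was 18267 and 39421 in the controls of 2 and 6 months, and 48884 and 70903 in csPIMT-/-. At 2 months 9 of 15 were more than 2-fold higher and none lower, beside 17.3% and 22.5% of all genes, and at 6 months 6 were higher and 2 lower, beside 16.9% and 24.9%. In limma 8 of 15 rose, beside 12.2% of all genes, such as the complement genes C1qa (ratios 3.61 and 2.37) and C1qb (3.34 and 2.45), and Ptprc, a surface marker of all leukocytes, fell (0.533 and 0.443). The part of either cell type in the iron results was not tested.

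The pools also differed in atrial, brown fat and lung markers. The summed normalized count of the 5 atrial markers was 40742 and 121253 in the controls of 2 and 6 months and 334131 and 349424 in csPIMT-/-, most of it from Nppa, the atrial natriuretic peptide gene (38182, 70659, 201180.0 and 320296). The study uses Nppa as an indicator of heart failure, made by ventricular cells too, and reports its rise in csPIMT-/- hearts by RT-qPCR. Nppa therefore does not mark atrial tissue alone. All 5 atrial markers were more than 2-fold higher at 2 months, beside 17.3% of all genes, with a median ratio of 49.9. At 6 months Nppa was more than 2-fold higher and Myl7, Sln and Bmp10 more than 2-fold lower, beside 16.9% and 24.9%, with a median of 0.467. The summed normalized count of the 7 brown fat and adipocyte markers was 1909.7, 3979, 16802 and 4747 in the same order, and that of the 8 lung markers 39.8, 23.7, 1179.9 and 98.8. Single genes went further. Bmp10, an atrial gene, had 6 and 7159 reads in the controls of 2 and 6 months and 6946 and 1037 in csPIMT-/-. Ucp1, of brown fat, had 10, 106, 1432 and 12 reads in the same order, and Bpifa1, of airways, 0, 1, 794 and 8. Of the 10 cardiomyocyte markers, 1 was past 2-fold at 2 months, beside 39.7% of all genes. It was Pln, which inhibits the calcium pump, with a ratio of 0.389. At 6 months 3 were, beside 41.9% of all genes, with Pln at 0.257. The median ratio of the 10 was 1.10 at 2 months and 0.847 at 6 months. Their summed normalized count, 3354440 and 3857980 in the controls and 2552470 and 1857250 in csPIMT-/-, was carried largely by Ttn, the titin gene, with 1868820 and 2448080 in the controls and 1069320 and 713324 in csPIMT-/-. Whether these markers came from other tissue in the pools, and the part of such tissue in the iron results, was not tested.

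The genes around the members were followed through 7 lists of iron and heme genes, 87 of them in the files. At 2 months 84 could be compared, of which 6 were more than 2-fold lower and 22 higher, beside 22.5% and 17.3% of all genes. At 6 months 83 could, of which 9 were lower and 18 higher, beside 24.9% and 16.9%. The median ratio was 1.40 and 1.23, against 0.997 and 1.002 over all genes. With the GC trend subtracted, 81 could be compared at each age. Then 3 were lower and 16 higher at 2 months, beside 11.1% and 14.5% of all genes. At 6 months 5 were lower and 13 higher, beside 12.7% and 13.5%. Of 83 tested in limma 25 passed, 7 lower and 18 higher, close to the 30.2% of all genes that passed. The counts by list that follow stand beside 18% of all genes that fell and 12.2% that rose in limma, and no list was tested against that background. Among 16 genes of uptake and trafficking, 4 rose and 1 fell. Trf, the plasma carrier transferrin, rose with ratios of 3.63 and 2.74, on normalized counts of 3023 and 3504 in the controls and 10980.3 and 9587 in csPIMT-/-. Cyb561, of the cytochrome b561 family, rose with 2.60 and 3.61. Among 11 genes of export and systemic control, 2 rose and 1 fell. Bmp6, the signal that raises hepcidin in the liver, rose with 2.07 and 3.66. Fbxl5, the iron-sensing adaptor that directs Ireb2 protein to degradation, fell with 0.624 and 0.489. With the GC trend subtracted, the direction of Fbxl5 turned at both ages, with ratios of 1.503 at 2 months and 1.338 at 6 months. Trf, Cyb561 and Bmp6 stayed higher in csPIMT-/- at both ages.

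Of 21 genes of mitochondrial iron and iron-sulfur clusters, 8 passed, beside 30.2% of all genes, of which 5 rose and 3 fell. Among those that fell were Hspa9, the mitochondrial chaperone mortalin, with ratios of 0.595 and 0.369, and Isca1, of late cluster assembly, with 0.418 and 0.535. Fdxr, the ferredoxin reductase, rose with 3.35 and 2.20 and Fdx1l, the ferredoxin of cluster assembly, with 3.49 and 3.16, while the ferredoxin gene Fdx1 had ratios of 1.07 and 0.797 and did not pass the test (limma, adjusted p = 0.754). Gfer, a sulfhydryl oxidase of mitochondrial import, rose with 2.41 and 2.67. With the GC trend subtracted, Hspa9 stood at 0.939 and 0.628 and Isca1 at 0.542 and 0.695. Fdxr then stood at 2.02 and 1.29, Fdx1l at 2.08 and 1.84 and Gfer at 1.72 and 1.83.

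Of 10 genes of cytosolic iron-sulfur assembly, 4 rose and none fell, where 12.2% and 18% of all genes did so, among them the scaffold genes Nubp1 (2.10 and 2.56) and Nubp2 (2.29 and 2.36). Of 10 genes of heme synthesis, Cpox, coproporphyrinogen oxidase, fell with ratios of 0.625 and 0.454 and none rose. Of 11 genes of heme transport and breakdown, 3 rose and none fell, with Lrp1, the receptor that clears heme bound to hemopexin, at 3.27 and 3.11. Among 12 targets and regulators of the oxidative stress factor NRF2, which also drives Hmox1, 4 rose, with Osgin1 at 5.95 and 3.59, and Nfe2l2, which encodes NRF2 itself, fell with 0.516 and 0.649. Of 4 other mRNAs known to carry an iron-responsive element, Cdc42bpa, a kinase gene, fell with 0.232 and 0.489 and none rose. With the GC trend subtracted, Cdc42bpa stood at 0.401 and 0.941, Nfe2l2 at 0.742 and 0.967 and Cpox at 0.819 and 0.598. Nubp1 then stood at 1.39 and 1.67, Nubp2 at 1.53 and 1.54, Lrp1 at 2.03 and 1.89 and Osgin1 at 3.57 and 2.11.

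**Figure D5:**
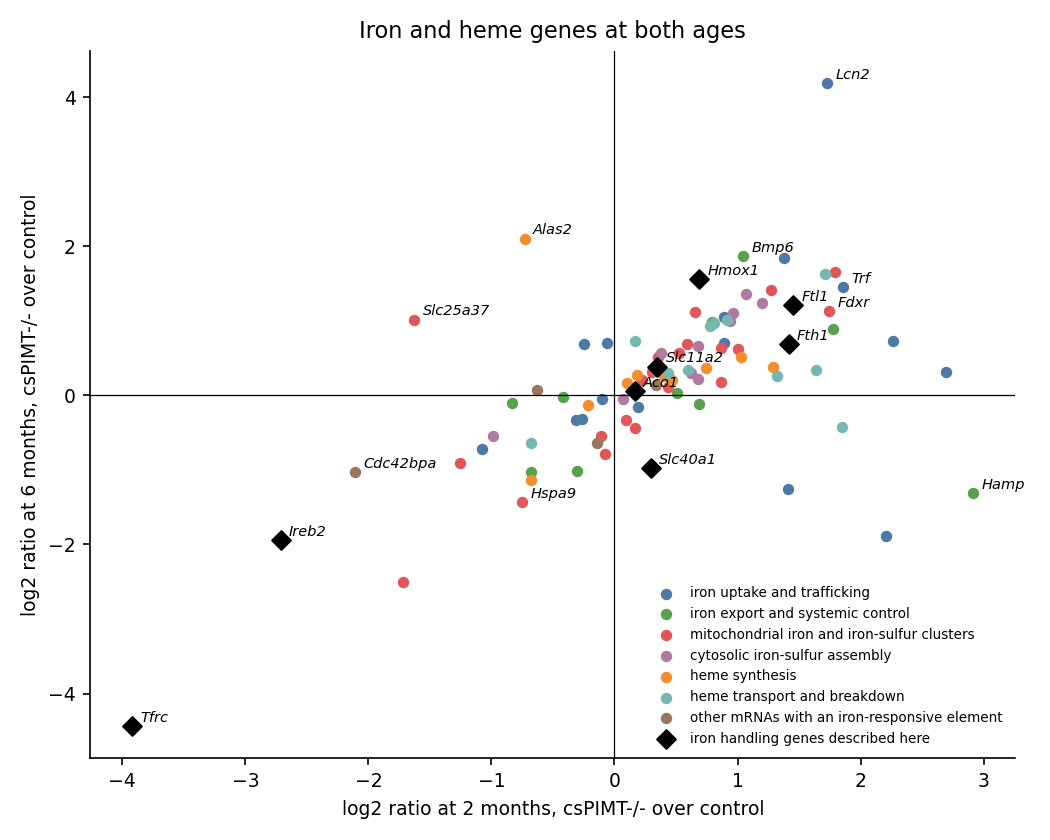
log2 ratio of csPIMT-/- over control at 6 months against that at 2 months, for the members (diamonds) and the genes of the 7 wider iron and heme lists (circles, coloured by list). Tfrc stands apart at the lower left, with log2 ratios of -3.92 and -4.43, and Slc40a1, Hamp, Alas2 and Slc25a37 are among those with opposite signs at the 2 ages.

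The genes whose values ran most like those of each member were found by the Euclidean distance of centred log2 values over the 4 libraries. Distances over so few libraries are a description only. Among 75 genes of the iron lists, Glrx3, a glutaredoxin, lay nearest to Aco1 at 0.111, and Nfu1, a cluster carrier, nearest to Slc11a2 at 0.121. Cdc42bpa lay nearest to Ireb2 at 0.778, Bmp6 to Hmox1 at 0.540, Abcb10 to Slc40a1 at 0.301 and Gfer to Ftl1 at 0.204. Over all 12075 genes with a mean of at least 100 reads, the nearest to Tfrc was Tet1 at 1.01 and the nearest to Ireb2 Tet2 at 0.0947, genes of DNA hydroxymethylation. For the other 6 members some gene lay within 0.0735.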

How the data were processed

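RNA-seq libraries of mouse heart were analysed, 1 per genotype and age, each from 5 pooled hearts. Per the labels and the study's methods, mRNA was selected with oligo-dT columns, TruSeq libraries were sequenced as single reads of 50 bases, aligned to mm10 with STAR, counted per gene with HTSeq (0.6.1p1 in the submitters' processing notes), and compared with DESeq2. The versions of the other tools are not given in the sources used here. The deposited signal is 1 normalized count per gene and library, made by the authors, on the median-of-ratios scale of the 4 libraries as its values show. The header of the older csPIMT-/- library speaks of read counts, although its values are normalized too. No sequencing batch or date is given.

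Dividing each value by the smallest above 0 gave whole reads for 100% of values (tolerance 0.001 reads). Ratios used the deposited scale, for genes reaching 10 reads in either library, and log2 ratios 0.5 added reads. limma 3.58.1 was fitted to log2(TMM-scaled reads + 1) with genotype and age and a mean trend of the variance (1 residual and 4.57 prior degrees of freedom), over genes with at least 10 scaled reads in 2 libraries and a total of at least 15, two-sided, with Benjamini-Hochberg adjustment and a threshold of 0.05. Fold changes are on the log2(value + 1) scale, which understates those of low genes. On the recovered reads, edgeR 4.0.16 (quasi-likelihood) called 4127 genes and DESeq2 1.42.0 called 5195. The scripts were tested on simulated data. The GC content was that of 1 transcript per gene in GENCODE M21. The longest one in CCDS, a set of agreed coding sequences, was taken, or else the longest of any type. It was available for 90.7% of the genes compared at 2 months. The GC trend was a lowess curve (span 0.3) that was subtracted from the log2 ratios.

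The members and lists were chosen with earlier results of these data known. Beside the members and Tgs1, the rule named at most 4 genes per list, those with at least 100 reads at each age and the largest mean log2 ratio among genes past 2-fold in 1 direction at both ages, and the gene nearest in pattern to each member. Fbxl5, Cpox, Nfe2l2, Ptprc, Hamp, Slc25a37, Alas2, Slc4a1, Fdx1, Myl7, Sln, Ttn, Hspa9, Isca1, Bmp10, Ucp1 and Bpifa1 were named after their values were seen. Some genes of the lists are not reported here. The alternatives were other control libraries, scalings, filters on low counts, pseudocounts, tools and models, and leaving out each library. Size factors of only the libraries compared were added after seeing the data.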

Additional observations from a re-analysis of the deposited data

Results flagged for a closer look

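Among the members, Slc40a1 had a ratio of csPIMT-/- over control whose counting interval lay on opposite sides of 1 at the 2 ages. Among genes of the wider iron lists with at least 100 reads at each age, Hamp and Slc25a37 were past 2-fold in opposite directions. The difference between the ages was not tested, since each age has 1 library per genotype. Slc40a1 had a ratio of 0.507 at 6 months and 1.23 at 2 months. With the GC trend subtracted its ratios were on the same side of 1, at 1.16 and 2.44. Hamp, which encodes hepcidin, the hormone that removes ferroportin from the cell surface, had a ratio of 0.398 at 6 months (95% interval 0.265 to 0.586) and 7.63 at 2 months (5.27 to 11.3), on 34 and 107 reads in the controls of 2 and 6 months and 182 and 36 in csPIMT-/-. The 5 atrial markers had a median ratio of 49.9 at 2 months and 0.467 at 6 months, and their part in the Hamp values was not tested. Slc25a37, the mitochondrial iron importer mitoferrin 1, had a ratio of 2.02 at 6 months (95% interval 1.85 to 2.22) and 0.323 at 2 months (0.276 to 0.377). Alas2, the first enzyme of heme synthesis in red cells, had ratios of 4.30 at 6 months and 0.604 at 2 months, and the erythroid marker Slc4a1 had 4.16 and 0.146. The part of red cells in these values was not tested.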

How the results depend on the processing

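With 1 library per group, single-age ratios have counting intervals only, and limma rests on 1 residual degree of freedom. No paired analysis was possible because the labels give no replicate numbers that groups share. Age, a term of the limma fit, was the only pairing, and without it 4651 genes and 4 members passed. Of the alternative counts of genes and members, 46 stayed within 1.5 times the reported count and 12 did not. With the GC trend subtracted, 3515 genes were past 2-fold at 2 months (6021 without) and 3623 at 6 months (6373), with 2 members at 6 months, and the share of calls that were lower went from 56.6% to 43.4% and from 59.5% to 48.5%. Between the control pools, 950 genes with at least 100 reads were past 2-fold in place of 2067. limma called 0 genes and 0 members with the GC trend subtracted (3229 at an unadjusted p under 0.05), and 0 and 0 without a mean trend of the variance (5930), where edgeR called 4127 and DESeq2 5195. Leaving out 1 library, with no age term, gave 268 to 4002 genes and 1 to 4 members: 1251 and 2 without the 2-month control, 268 and 1 without the 6-month control. Tfrc was lower under all alternatives and had an adjusted p under 0.05 in 11 of 13 fits (4.2e-38 to 0.111), Ireb2 in 10 (4.13e-09 to 0.250), Ftl1 in 9 (7e-05 to 0.175), Fth1 in 8 (0.00416 to 0.256) and Hmox1 in 5 (0.0138 to 0.330). Hmox1 also missed the threshold in edgeR (0.0504). Slc40a1, Slc11a2 and Aco1 passed in none, but Slc40a1 was past 2-fold lower at 6 months when scaled to library totals (log2 ratio -1.05) and with size factors of only the libraries compared (-1.02). The sign of the log2 difference turned for Slc40a1 (0.76 with the GC trend subtracted, -0.889 to 0.124 with 1 library left out, above 0 without the 6-month csPIMT-/- library) and Aco1 (-0.15, and -0.0614 to 0.207, below 0 without the 2-month csPIMT-/- library). The causes were not tested.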
